A study of Mus musculus with 9 samples.

Results

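The 10 genes described here encode 8 serine/arginine-rich (SR) and SR-like splicing factors, Srsf2, Srsf3, Srsf5, Srsf6, Srsf7, Srsf11, Tra2a and Tra2b, and 2 Cdc2-like kinases (CLK) that phosphorylate such factors, Clk1 and Clk4. They were chosen by name from the 49315 genes of the count table, with earlier results of these data known. Each name matched 1 gene. All 10 passed the filter on low counts and were tested. RNA came from RAW 264.7 cells, 1 transformed mouse line of macrophage type from which osteoclast-like cells can be grown. By the growth and treatment notes, all cells received RANKL, the cytokine that drives osteoclast formation, at 20 ng/ml after 24 h of growth. At 48 h in total, pamidronate was added at 140 µM, alone or with 5.25 µM geranylgeraniol (GGOH), and cells were pelleted after a further 24 h. Each of 3 groups has 3 libraries: cells that got no pamidronate (the control), pamidronate alone, and both compounds. The control is titled as untreated, so whether it received RANKL rests on the growth notes, and a percentage in the names of the libraries with both compounds is left unexplained by the labels. Pamidronate is a nitrogen-containing bisphosphonate that blocks farnesyl diphosphate synthase, and GGOH is an isoprenoid alcohol that cells can convert to the geranylgeranyl lipid used to modify small GTPases.

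SR proteins join an RNA-binding domain to a tail rich in arginine-serine dipeptides, bind exonic enhancers in pre-mRNA and recruit the splicing machinery to nearby splice sites. Kinases of the SRPK family phosphorylate these tails mainly in the cytoplasm, and CLK kinases do so in the nucleus, where the phosphorylation releases SR proteins from nuclear speckles. Most SR genes limit their own output: when the protein is plentiful, it favours a transcript with a premature stop codon that is degraded by nonsense-mediated decay. Clk1 and Clk4 transcripts are in part kept in the nucleus with introns retained.

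All 10 members have such transcripts in the GENCODE M21 annotation of GRCm38. A transcript marked for nonsense-mediated decay was annotated for 10 of 10 members, against 28.9% of the 12273 tested protein-coding genes found there. A retained-intron transcript was annotated for 10 of 10, against 58.8%. Clk1 has 13 annotated transcripts, of which 1 is protein-coding, 2 are marked for nonsense-mediated decay and 7 retain an intron. Srsf11 has 19, of which 5 are protein-coding, 3 are marked for decay and 11 retain an intron. The counts are per gene over all exons, so functional and decay-bound transcripts of a member were not separated in any value given here.

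The promoters of members that moved in opposite directions are shown side by side, for the 4 whose 150 bases before the RefSeq start hold no annotated exon. Tra2a and Tra2b were higher with pamidronate than in the control, and Srsf6 and Srsf2 were lower. Capitals mark matches, on either strand, to a CCAAT box (CCAAT), a GC box of the SP1 type (GGGCGG), an ETS core (CCGGAAG), an NRF1 site, a cyclic AMP response element (TGACGTCA), a TATA box (TATAAA) or an E-box (CACGTG), and no match in these 4 windows shares a base with another.
Tra2a (GRCm38.p6, chr6:49264053-49264202, minus strand): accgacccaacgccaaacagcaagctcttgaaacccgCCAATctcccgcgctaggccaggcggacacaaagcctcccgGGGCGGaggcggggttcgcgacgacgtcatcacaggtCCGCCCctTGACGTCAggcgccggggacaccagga
Tra2b (GRCm38.p6, chr16:22266006-22266155, minus strand): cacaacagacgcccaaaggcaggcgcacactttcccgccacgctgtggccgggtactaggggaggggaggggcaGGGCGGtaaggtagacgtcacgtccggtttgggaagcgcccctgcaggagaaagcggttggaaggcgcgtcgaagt
Srsf6 (GRCm38.p6, chr2:162931358-162931507, plus strand): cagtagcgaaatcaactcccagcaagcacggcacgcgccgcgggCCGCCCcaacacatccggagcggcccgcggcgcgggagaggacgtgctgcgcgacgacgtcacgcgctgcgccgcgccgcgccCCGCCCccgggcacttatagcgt
Srsf2 (GRCm38.p6, chr11:116853095-116853244, minus strand): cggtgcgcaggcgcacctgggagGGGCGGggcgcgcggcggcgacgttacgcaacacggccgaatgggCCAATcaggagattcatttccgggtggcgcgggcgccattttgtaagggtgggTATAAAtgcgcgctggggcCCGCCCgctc

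All 4 windows hold a GC box. Among the 9 members with a RefSeq promoter entry, 8 have 1 in the window before their first listed start, against 28.6% of 32851 such windows and 58.1% of the 9626 windows within the members' range of GC content, 59.3% to 74.7%. The cyclic AMP response element, printed above in Tra2a, was also found in Clk4, and it stands in 1.36% of all windows and 2.5% of those in the GC range. The Clk4 window, from 51262964 to 51263113 on chromosome 11, overlaps an annotated exon and lies downstream of the counted gene start, 51261730. A TATA box was found in Srsf2 and Srsf3 (7.57% of all windows and 1.97% of those in the GC range) and a CCAAT box in Tra2a, Srsf2 and Srsf3 (24.5%). An E-box was found in none of the 9 (4.3% of all windows). These matches describe letters and do not show binding.

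The libraries held 14356069 to 18957968 counts, of which the members made up 0.0768% to 0.108%. The macrophage markers fixed for a check of the cell type were all present, and their summed level was 14515 to 17998 CPM (counts per 1000000, here of the library total) in the control, 4261 to 6028 with pamidronate and 6841 to 10024 with pamidronate + GGOH. Lyz2 made up most of that sum, at 11120 to 14700, 3224 to 4799 and 5415 to 7827 CPM. Csf1r stood at 1226 to 1352, 74 to 118 and 321 to 665 CPM, and Cd68 at 910.5 to 975.5, 555 to 641 and 461 to 572. Every marker of this list lay lower with pamidronate than in the control. The 8 osteoclast markers summed to 195 to 231, 334 to 467 and 341 to 347 CPM, with Calcr, the calcitonin receptor, at 0 counts in the control and with pamidronate. Within that list, Atp6v0d2 was at 50.9 to 59.5, 200.5 to 314.8 and 91.35 to 164.8 CPM in the 3 groups. Ctsk was at 3.38 to 6.26, 29.4 to 34.4 and 8.77 to 13.9 CPM, and Dcstamp also lay higher with pamidronate than in the control. Only Nfatc1 lay lower with pamidronate, at 115.7 to 132 and 79.1 to 84.6 CPM. Mmp9 overlapped there, at 15.9 to 30.6 and 14.2 to 20.45 CPM, and stood at 66.9 to 141.1 CPM with pamidronate + GGOH. Of 4 endothelial markers, Tek moved with the groups, at 0.0528 to 0.264 CPM in the control and 4.15 to 5.35 with pamidronate and 15.9 to 45.1 with pamidronate + GGOH, while Cdh5 reached at most 1.81 CPM and Emcn was at 0 in the control and with pamidronate. Markers of fibroblasts, of T and B cells and of epithelium summed to at most 10.55, 2.01 and 1.11 CPM in any library. The long nuclear RNA Malat1 made up 1.35% to 1.66% of counts in the control, 4.53% to 4.99% with pamidronate and 2.39% to 2.82% with pamidronate + GGOH, and mitochondrial transcripts made up 10.4% to 10.8%, 3.71% to 5.19% and 5.43% to 6.31%. Gm26917 made up 7.17% to 8.41%, 12.1% to 12.9% and 10.04% to 11.7% of counts in the same order of groups, and Neat1 0.108% to 0.290%, 2.07% to 2.26% and 0.556% to 0.852%. Genes with at least 1 count numbered 20558 to 22349, 24287 to 26635 and 25202 to 28054. The part of these shifts in the results below was not tested. Only the control titles speak of biological replicates, and the extraction notes say that RNA was taken in triplicate, so p-values measure the spread between these libraries, which may be technical. In bulk RNA, fewer cells of a type and less RNA per cell cannot be told apart.

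With pamidronate, the CLK kinases, both Tra2 factors and Srsf11 were higher than in the control, while Srsf6, Srsf2 and Srsf5 were lower. The call of Tra2b was lost in 10 of 18 alternative fits and that of Srsf5 in 2. Clk1 and Clk4 rose 2.28-fold and 2.18-fold, and Srsf6 fell 2.5-fold. Of the 10 members, 5 rose, 3 fell and 2 were not called at an adjusted p under 0.05 in edgeR's quasi-likelihood test across 15963 genes. In this comparison 69.2% of all genes tested were called, 36.2% higher and 32.9% lower, so the number of calls among the members is near the background. The median log2 fold change of the members was 0.06, and that of all genes tested was 0.08. The libraries of the groups did not overlap for 8 members, as for 73.4% of all genes tested.

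**Figure D1:**
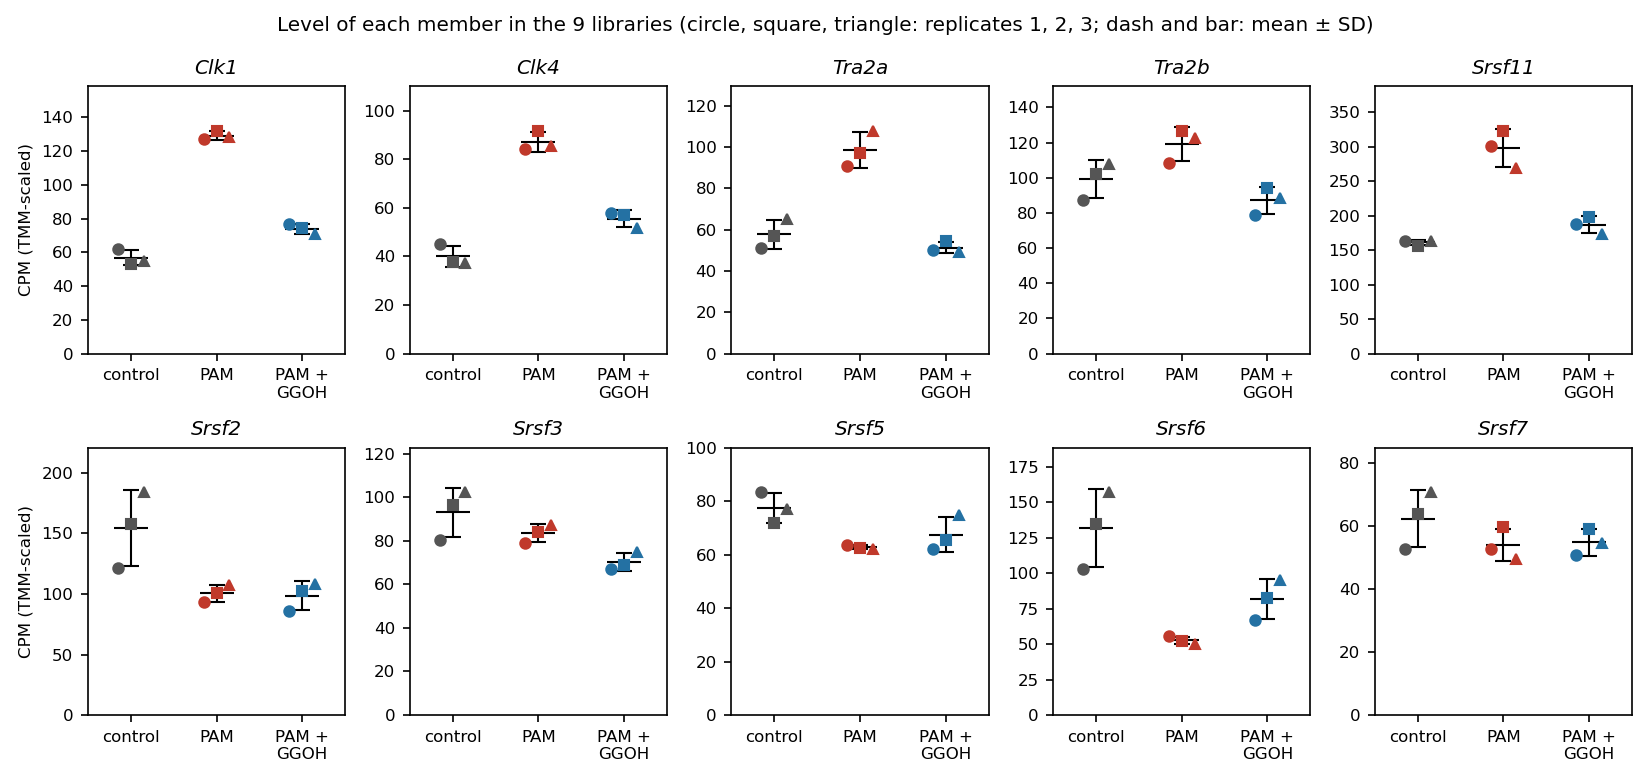
TMM-scaled CPM (y axis, from 0) of the 10 members in the control, pamidronate (PAM) and pamidronate + GGOH (PAM + GGOH) libraries, with circles, squares and triangles for replicates 1, 2 and 3 and a dash and bar for mean ± SD (n = 3). Clk1, Clk4 and Srsf11 lie highest with pamidronate and in between with GGOH, Srsf6 shows the opposite order, and Srsf2 stays low in both treated groups.

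Clk1 (ENSMUSG00000026034, GRCm38 chromosome 1, 58410189 to 58424066), a dual-specificity kinase that phosphorylates SR proteins in the nucleus, stood at 61.9, 53.4 and 55.1 CPM in control replicates 1, 2 and 3. These CPM values are scaled with TMM factors, as are all below. With pamidronate it stood at 127, 132 and 128 CPM, and with pamidronate + GGOH at 76.7, 74.6 and 70.9. Every pamidronate library lay above every other library, and every pamidronate + GGOH library lay between the other groups. The log2 fold change with pamidronate was 1.19 ± 0.08 (SE, edgeR adjusted p = 2.1e-08). GGOH changed it by a log2 difference of -0.80 ± 0.08 (SE, adjusted p = 2.96e-06), and it remained above the control by 0.38 ± 0.08 (SE, adjusted p = 0.00141).

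Clk4 (ENSMUSG00000020385, chromosome 11, 51261730 to 51281766), the closest relative of Clk1, gave the same order of groups. It stood at 45.0, 37.7 and 37.4 CPM in the control, 84.5, 91.8 and 85.3 with pamidronate and 57.8, 57.3 and 51.6 with pamidronate + GGOH. No group overlapped another. Its log2 fold changes were 1.12 ± 0.09 (SE, adjusted p = 1.15e-07) with pamidronate, -0.65 ± 0.09 (SE, adjusted p = 5.45e-05) for GGOH against pamidronate, and 0.47 ± 0.09 (SE, adjusted p = 0.00084) against the control. The ratio of Clk1 to Clk4 was taken with each as TPM (transcripts per 1000000, the authors' deposited level per length). It was 0.980 to 1.05 in the control, 1.03 to 1.07 with pamidronate and 0.929 to 0.980 with pamidronate + GGOH. An exon of Clk4 shares 59 bases with the small RNA gene Gm25082 on the same strand, which had 27 counts over the 9 libraries.

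Tra2a (ENSMUSG00000029817, chromosome 6, 49243924 to 49264033) and Tra2b (ENSMUSG00000022858, chromosome 16, 22244549 to 22266005) encode the transformer-2 proteins, which bind purine-rich exonic enhancers. Tra2a stood at 51.3, 56.8 and 65.2 CPM in the control, 90.9, 97.3 and 108 with pamidronate and 50.1, 54.6 and 49.4 with pamidronate + GGOH. The pamidronate libraries lay above the rest, and the other groups overlapped. Tra2a rose by a log2 difference of 0.77 ± 0.10 (SE, adjusted p = 8.1e-06) with pamidronate and changed by -0.94 ± 0.10 (SE, adjusted p = 4.65e-06) with GGOH, the largest of the members in that comparison. Against the control the pamidronate + GGOH group was at -0.17 ± 0.10 (SE, adjusted p = 0.172), and it was called lower without control replicate 1 (adjusted p = 0.0476).

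Tra2b stood at 87.3, 102 and 108 CPM in the control, 109, 127 and 122 with pamidronate and 79.0, 93.9 and 88.7 with pamidronate + GGOH. Its lowest pamidronate library lay just above its highest control library. The log2 fold change with pamidronate was 0.27 ± 0.10 (SE, adjusted p = 0.0283), a call lost in 10 of 18 alternatives, with adjusted p up to 0.179, among them the fit without control replicate 1 (0.135) and DESeq2 (0.111). With GGOH it fell by 0.45 on the log2 scale (SE 0.10, adjusted p = 0.00189), a call that held in all 18. The TPM of Tra2b was 2.14 to 2.32 times that of Tra2a in the control, 1.46 to 1.68 times with pamidronate and 2.04 to 2.32 times with pamidronate + GGOH. The size of these ratios depends on the exon length in the files, 5383 bases for Tra2b, where GENCODE M21 gives 9235.

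Srsf11 (ENSMUSG00000055436, chromosome 3, 158010473 to 158036639), a nuclear SR-like protein also called p54, was higher with pamidronate than in the other groups. It stood at 164, 156 and 163 CPM in the control, 301, 323 and 269 with pamidronate and 188, 198 and 174 with pamidronate + GGOH. The groups did not overlap. It rose by a log2 difference of 0.89 ± 0.09 (SE, adjusted p = 7.09e-07) with pamidronate and changed by -0.67 ± 0.09 (SE, adjusted p = 2.93e-05) with GGOH. The difference that was left against the control, 0.21 ± 0.09 (SE), was not called (adjusted p = 0.0605), but it was with upper-quartile factors (0.41, adjusted p = 0.00164), under the stricter filter of 5 CPM in 3 libraries (0.36, adjusted p = 0.00406), in a fit of these 2 groups alone (adjusted p = 0.0403) and without pamidronate + GGOH replicate 3 (adjusted p = 0.0327).

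Srsf6 (ENSMUSG00000016921, chromosome 2, 162931528 to 162937121), an SR protein with a pair of RNA recognition motifs, moved against the CLK kinases. It stood at 103, 135 and 157 CPM in the control, 55.4, 51.9 and 50.4 with pamidronate and 67.3, 82.8 and 95.5 with pamidronate + GGOH. The control libraries spread widely, but every one lay above every treated library, and the treated groups did not overlap each other. The log2 fold change was -1.32 ± 0.15 (SE, adjusted p = 1.05e-05) with pamidronate, 0.64 ± 0.15 (SE, adjusted p = 0.00473) for GGOH against pamidronate and -0.68 ± 0.15 (SE, adjusted p = 0.00272) for pamidronate + GGOH against the control. Srsf6 was the 1 member that was called higher with GGOH than with pamidronate alone.

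Srsf2 (ENSMUSG00000034120, chromosome 11, 116849901 to 116853094), also known as SC35, an SR protein of the nucleus, was lower in both treated groups. It stood at 122, 158 and 184 CPM in the control, 93.6, 101 and 107 with pamidronate and 85.7, 102 and 108 with pamidronate + GGOH. The treated groups overlapped each other and lay below the control. The log2 fold changes against the control were -0.62 ± 0.13 (SE, adjusted p = 0.00112) with pamidronate and -0.65 ± 0.13 (SE, adjusted p = 0.00152) with pamidronate + GGOH, while GGOH against pamidronate gave -0.03 ± 0.14 (SE, adjusted p = 0.893), with a sign that turned in 6 of 18 alternatives, up to 0.11 without pamidronate + GGOH replicate 1. Exons of Srsf2 share 460 bases with Mettl23 and 288 with Mfsd11 on the opposite strand, and since strandedness is not given in the sources used here, reads from these genes cannot be told apart there.

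Srsf5 (ENSMUSG00000021134, chromosome 12, 80945504 to 80950507), an SR protein that is induced by insulin in other cells, moved little. It stood at 83.4, 72.0 and 77.0 CPM in the control, 63.8, 62.6 and 62.2 with pamidronate and 62.2, 65.3 and 74.9 with pamidronate + GGOH. The pamidronate libraries lay below every control, and the pamidronate + GGOH libraries overlapped both groups. It fell by 0.30 on the log2 scale with pamidronate (SE 0.09, adjusted p = 0.0084), and that call was lost with upper-quartile factors (-0.11, adjusted p = 0.281) and under the stricter filter (-0.15, adjusted p = 0.121). GGOH against pamidronate gave 0.10 ± 0.09 (SE, adjusted p = 0.374). Pamidronate + GGOH against the control gave -0.20 ± 0.09 (SE, adjusted p = 0.0769), and leaving out pamidronate + GGOH replicate 3 made it a call (-0.30, adjusted p = 0.00968).

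Srsf3 (ENSMUSG00000071172, chromosome 17, 29032673 to 29043366) and Srsf7 (ENSMUSG00000024097, chromosome 17, 80200089 to 80207305), small SR proteins that also act as adaptors for mRNA export, were not called with pamidronate. Srsf3 stood at 80.5, 96.3 and 102 CPM in the control, 79.1, 84.3 and 87.5 with pamidronate and 67.0, 68.8 and 74.8 with pamidronate + GGOH, so that only the last group lay apart. Its log2 fold changes were -0.15 ± 0.10 (SE, adjusted p = 0.162) with pamidronate and -0.41 ± 0.10 (SE, adjusted p = 0.00275) for pamidronate + GGOH against the control. For GGOH against pamidronate it was -0.25 ± 0.10 (SE, adjusted p = 0.0423), a call lost in 10 of 18 alternatives, with adjusted p of 0.0184 to 0.206 over all of them. The call against the control was lost with upper-quartile factors (-0.20, adjusted p = 0.0751).

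Srsf7 stood at 52.6, 63.7 and 70.7 CPM in the control, 52.7, 59.6 and 49.5 with pamidronate and 50.7, 59.2 and 54.6 with pamidronate + GGOH. All 3 groups overlapped, and no comparison was called (adjusted p = 0.112, 0.879 and 0.179). Without control replicate 1, both Srsf3 (-0.26, adjusted p = 0.0221) and Srsf7 (-0.32, adjusted p = 0.0142) were called lower with pamidronate. Each was also called without pamidronate + GGOH replicate 3 (adjusted p = 0.041 and 0.0401), and Srsf7 further without pamidronate + GGOH replicate 1 (adjusted p = 0.0479) and with no filter (adjusted p = 0.0207).

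Libraries with the number 1 were often the lowest of their group, for 6 members in each of the 3 groups. Srsf2, Srsf3 and Tra2b were lowest there in all 3 groups, and Srsf2 and Srsf3 were highest in replicate 3 in all 3. Control replicate 1 was the lowest control for 6 members, Srsf2, Srsf3, Srsf6, Srsf7, Tra2a and Tra2b, for each of which replicate 3 was the highest, and it was the highest control for the other 4. The highest control exceeded the lowest 1.53-fold for Srsf6 and 1.51-fold for Srsf2, but 1.05-fold for Srsf11. Histone RNAs, summed over 68 symbols that start with Hist, made up 0.0609%, 0.127% and 0.175% of counts in control replicates 1, 2 and 3. Their part in the spread was not tested.

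**Figure D2:**
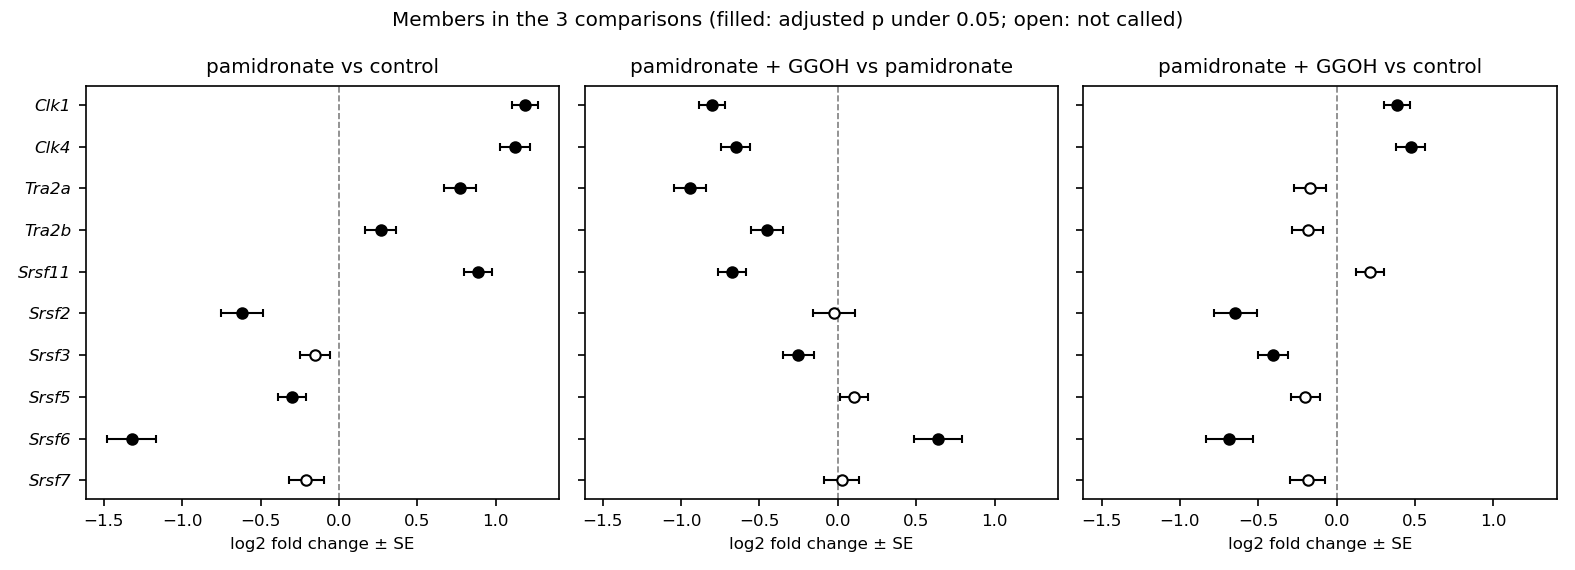
Log2 fold change (x axis) ± SE of each member in the 3 comparisons, with filled points for an adjusted p under 0.05 in edgeR's quasi-likelihood test and open points for genes not called. Clk1, Clk4, Tra2a, Tra2b and Srsf11 lie right of 0 with pamidronate and left of 0 when GGOH was added, and Srsf6 shows the reverse.

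Adding GGOH to pamidronate lowered Clk1, Clk4, Tra2a, Tra2b, Srsf11 and Srsf3 and raised Srsf6, though the call of Srsf3 was lost in 10 of 18 alternatives. Of the 10 members 6 fell, 1 rose and 3, Srsf2, Srsf5 and Srsf7, were not called, while 48.8% of all genes tested were called, 23.6% lower and 25.2% higher. The median log2 fold change was -0.35 for the members and 0.00 for all genes tested. Groups did not overlap for 7 of the 10, against 59.6% of all genes. Values for the single members are given above. This comparison shares its pamidronate libraries with the first, so the opposite signs are not independent of each other.

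Against the control, cells given both compounds had higher Clk1 and Clk4, at 1.3-fold and 1.39-fold, and lower Srsf2, Srsf3 and Srsf6. The other 5 members were not called, and 52.4% of all genes tested were, 26.3% higher and 26.0% lower. With upper-quartile factors the split over all genes became 5834 higher and 2600 lower, from 4202 and 4157. That scaling moved the median of all genes by 0.20 in this comparison and by 0.19 in the comparison of pamidronate with the control. Under it the count of members became 3 higher and 2 lower. Under the stricter filter, the median of the genes that it kept moved by 0.15 in both of these comparisons. The groups did not overlap for 6 members, as for 58.2% of all genes tested. Without control replicate 1, 8 members were called in place of 5. The mean of the pamidronate + GGOH group lay between the other means for 6 members, and all its libraries lay between the other groups for 4, Clk1, Clk4, Srsf6 and Srsf11.

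Levels were compared between members on the TPM scale. TPM was not scaled with TMM factors, so it is read here within a group. It uses the exon lengths in the files, which are shorter than in GENCODE M21 for some members. These are Srsf3 (5109 against 7899 bases), Srsf7 (2279 against 3550) and Tra2b (5383 against 9235), so their places in the order depend on the length used. In the control Srsf2 was highest, at 119 ± 29.9 TPM (SD, n = 3), followed by Srsf6 at 62.4 ± 16.01 and Srsf7 at 62.3 ± 12.3, which overlapped each other. Srsf5, Srsf11, Tra2b and Srsf3 came next at 41.5 to 43.9 TPM and each overlapped its neighbour. Tra2a, Clk1 and Clk4 were lowest, at 18.9 ± 3.22, 15.8 ± 0.544 and 15.6 ± 0.802 TPM, and their ranges overlapped as well.

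With pamidronate that order changed. Srsf11 at 87.5 ± 8.19 TPM and Srsf2 at 84.3 ± 4.42 overlapped at the top, and Srsf6 was last, at 27.2 ± 1.98 TPM, apart from its neighbour Tra2a at 35.3 ± 2.58. Srsf3, Clk1, Srsf5, Clk4 and Tra2a lay within 35.3 to 40.6 TPM, each overlapping its neighbour. With pamidronate + GGOH, Srsf2 was again highest, at 95.3 ± 12.9 TPM, Srsf6 stood at 48.6 ± 9.06, next to Srsf5, and Clk4, Clk1 and Tra2a were the lowest, at 27.3 ± 1.64, 26.0 ± 0.863 and 21.1 ± 1.52 TPM, with Tra2a apart from Clk1.

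**Figure D3:**
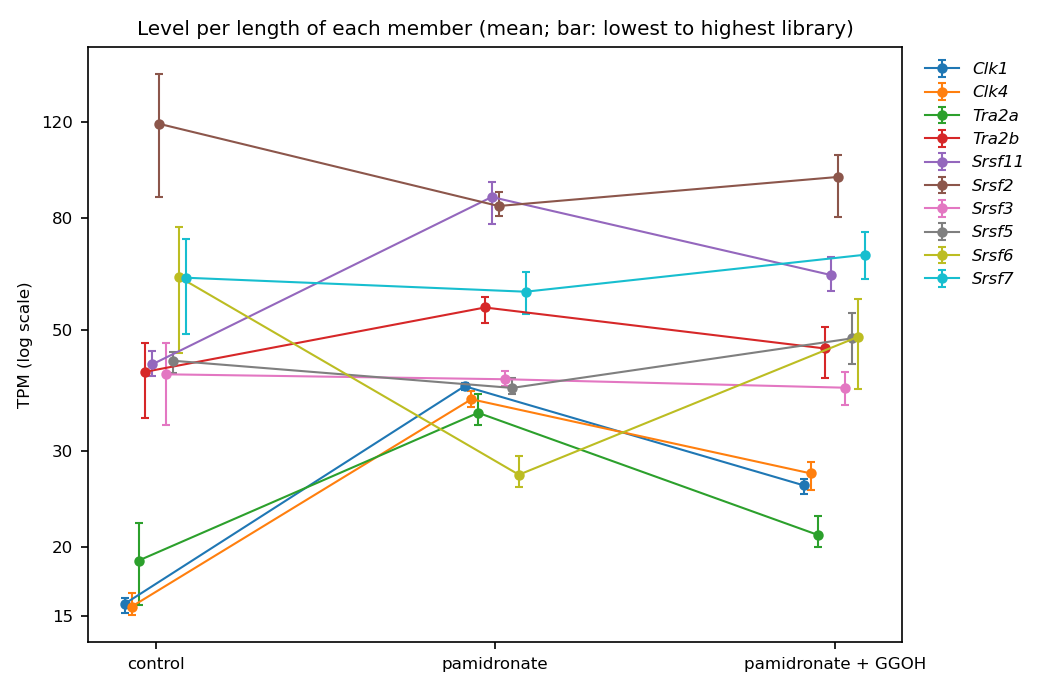
Mean level of each member as TPM (y axis, log scale) in the 3 groups, with bars from the lowest to the highest of the 3 libraries and points set slightly apart for legibility. Srsf6 goes from second by mean in the control, where its range overlaps that of Srsf7, to last with pamidronate. Clk1 and Clk4 leave the bottom of the order with pamidronate. TPM is not scaled with TMM factors, so its direction between groups can differ from that of CPM. Srsf5 had means of 43.9 TPM in the control and 48.2 with pamidronate + GGOH, but 77.5 and 67.5 CPM.

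Across the 9 libraries, the 45 pairs of members had Pearson correlations of log2 CPM from -0.973 for Srsf6 with Clk4 to 0.991 for Clk1 with Clk4. Clk1 and Srsf11 had 0.977, and Tra2a and Tra2b had 0.906. These points fall into 3 treatment groups and share library scaling, so the values describe a common order of groups. Among 9332 other named genes at 5 CPM or more, those most like Clk1 were Ccnt2, Gadd45b, Tmem39a, Ccnl1 and Malat1, with Pearson r of 0.996 to 0.998 over the same libraries. Those most like Srsf3 were Srsf1, Fam53b, Senp3, Rpa2 and Atad5, at 0.971 to 0.990, with Srsf1, another SR protein, first.

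Of the 9 other kinases of SR proteins listed, 6 rose and 2 fell with pamidronate, against 36.2% and 32.9% of all genes tested. Clk3 rose 4.41-fold, from 44.7, 36.4 and 39.3 CPM in the control to 169, 182 and 180, with 93.1, 82.9 and 68.0 CPM with pamidronate + GGOH, and its log2 fold change with pamidronate was 2.14 ± 0.11 (SE, adjusted p = 3.16e-09). Clk2 stood at 53.8, 56.6 and 61.2 CPM in the control, 124, 122 and 129 with pamidronate and 101, 93.4 and 88.5 with pamidronate + GGOH, a log2 difference of 1.13 ± 0.08 (SE, adjusted p = 4.14e-08) with pamidronate. All 4 CLK genes were thus called higher with pamidronate and lower again with GGOH, and all 4 stayed above the control with both compounds.

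Srpk1 and Srpk2, the SRPK kinases with the higher levels, were lower with pamidronate. Srpk1 fell from 88.6 ± 9.03 to 63.6 ± 8.44 CPM (SD, n = 3), a log2 difference of -0.48 ± 0.10 (SE, adjusted p = 0.000838), and Srpk2 from 86.8 ± 1.64 to 55.8 ± 2.67 CPM (SD, n = 3), at -0.64 ± 0.09 (SE, adjusted p = 1.44e-05). With GGOH, Srpk2 rose against pamidronate by 0.41 ± 0.09 (SE, adjusted p = 0.00141), and Srpk1 gave 0.25 ± 0.10 (SE, adjusted p = 0.0555). Srpk3, which is mainly a muscle gene, was at 1.69 CPM in the control and 2.59 with pamidronate (adjusted p = 0.0458). Dyrk1a and Prpf4b, kinases of splicing factors found in the nucleus, rose by 0.49 ± 0.08 and 0.37 ± 0.08 (SE), and Dyrk1b by 2.29 ± 0.19 (SE) from 2.87 CPM. Dyrk2 was not called with pamidronate (adjusted p = 0.669).

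**Figure D4:**
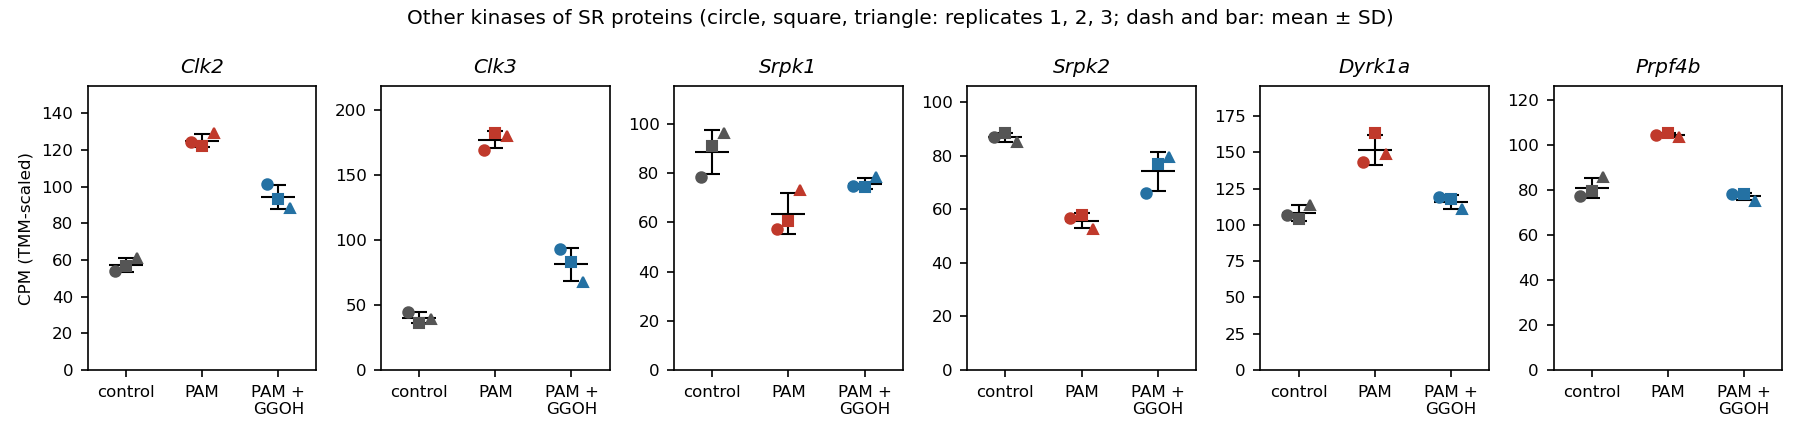
TMM-scaled CPM (y axis, from 0) of 6 other kinases of SR proteins in the control, pamidronate (PAM) and pamidronate + GGOH libraries, with circles, squares and triangles for replicates 1, 2 and 3 and a dash and bar for mean ± SD (n = 3). Clk2 and Clk3 lie highest with pamidronate, and Srpk1 and Srpk2 lie lowest.

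Of the 5 remaining SR proteins listed, 4 passed the filter and 2 of these fell with pamidronate, 50% against 32.9% of all genes tested, with 0 that rose. Under upper-quartile factors 1 of the 4 fell. Srsf9, a small SR protein, fell from 37.1 ± 1.87 to 18.5 ± 0.522 CPM (SD, n = 3), a log2 difference of -1.003 ± 0.108 (SE, adjusted p = 1.25e-06), and rose with GGOH by 0.36 ± 0.11 (SE, adjusted p = 0.0137). Srsf1, the best studied SR protein, stood at 207, 256 and 301 CPM in the control, 197, 208 and 214 with pamidronate and 147, 152 and 176 with pamidronate + GGOH. Its log2 fold changes against the control were -0.30 ± 0.12 (SE, adjusted p = 0.0333) with pamidronate, where the libraries overlapped, and -0.69 ± 0.12 (SE, adjusted p = 0.000314) with pamidronate + GGOH. GGOH against pamidronate gave -0.38 ± 0.12 (SE, adjusted p = 0.0158). Srsf10 was called lower with pamidronate + GGOH than in the control (-0.30 ± 0.11, SE, adjusted p = 0.0389), and Srsf4 was called in no comparison. Srsf12 was too low to be tested.

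Among 20 SR-related and nuclear speckle genes, 13 rose and 2 fell with pamidronate, 65% and 10% against 36.2% and 32.9% of all genes tested. The share called in either direction was 75.0% against 69.2% of all genes, and the median log2 fold change was 0.43. Under upper-quartile factors 16 rose and 1 fell, 80% and 5% against 43.9% and 27.0% of all genes tested. Luc7l and Luc7l3, U1-associated proteins, rose by 1.51 ± 0.10 and 1.00 ± 0.10 (SE). Rsrc2 and Scaf4, which carry arginine-serine stretches, rose by 0.78 ± 0.10 and 0.71 ± 0.08 (SE). With GGOH against pamidronate, 13 of the 20 fell and 0 rose, against 23.6% and 25.2% of all genes tested.

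Of 26 hnRNP genes, whose proteins often oppose SR proteins at splice sites, 6 rose and 15 fell with pamidronate, 23.1% and 57.7% against 36.2% and 32.9% of all genes tested, with a median of -0.28. Under upper-quartile factors 7 rose and 9 fell, 26.9% and 34.6%, while the shares over all genes tested became 43.9% and 27.0%. Hnrnpa0, Syncrip and Hnrnpab changed by -1.51 ± 0.11, -1.26 ± 0.11 and -1.24 ± 0.14 (SE), and Ptbp2 rose by 0.84 ± 0.10 (SE). With GGOH, 11 of the 26 fell against pamidronate and 4 rose, 42.3% and 15.4% against 23.6% and 25.2% of all genes tested. Hnrnpa0 rose by 0.55 and Syncrip by 0.42 on the log2 scale (adjusted p = 0.000734 and 0.00382). Ptbp2 changed by -0.47 (adjusted p = 0.00145), and Hnrnpab was not called (0.34, adjusted p = 0.0575).

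Of 35 core spliceosome genes, 14 rose and 12 fell with pamidronate, 40.0% and 34.3%, shares near the 36.2% and 32.9% of all genes tested. Under upper-quartile factors 19 rose and 8 fell, 54.3% and 22.9% against 43.9% and 27.0% of all genes tested. Eftud2 and Prpf31, parts of the U5 and U4/U6 particles, changed by -1.17 ± 0.13 and -1.09 ± 0.13 (SE), while Sf3b5 and Prpf38b rose by 1.04 ± 0.16 and 1.02 ± 0.08 (SE). With GGOH, 19 of the 35 fell and 5 rose, 54.3% and 14.3% against 23.6% and 25.2% of all genes tested.

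Of 17 genes of nonsense-mediated decay, 8 rose and 2 fell with pamidronate, 47.1% and 11.8% against 36.2% and 32.9% of all genes tested. In either direction 58.8% were called, against 69.2% of all genes tested. Under upper-quartile factors 9 rose and 2 fell, 52.9% and 11.8% against 43.9% and 27.0%. Smg5 rose by 0.91 ± 0.08 and Smg1, the kinase of this pathway, by 0.87 ± 0.10 (SE). Magoh, a protein of the exon junction complex, rose by 0.79 ± 0.10 (SE). With GGOH 11 of the 17 fell and 1 rose, 64.7% and 5.88% against 23.6% and 25.2% of all genes tested. Of 13 other RNA-binding proteins that limit their own output, 6 rose and 4 fell with pamidronate, 46.2% and 30.8% against 36.2% and 32.9% of all genes tested. Under upper-quartile factors 8 rose and 3 fell, 61.5% and 23.1% against 43.9% and 27.0%. Ewsr1 and Rbm25 rose by 0.71 ± 0.08 and 0.65 ± 0.08 (SE), and Cirbp changed by -0.88 ± 0.17 (SE).

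**Figure D5:**
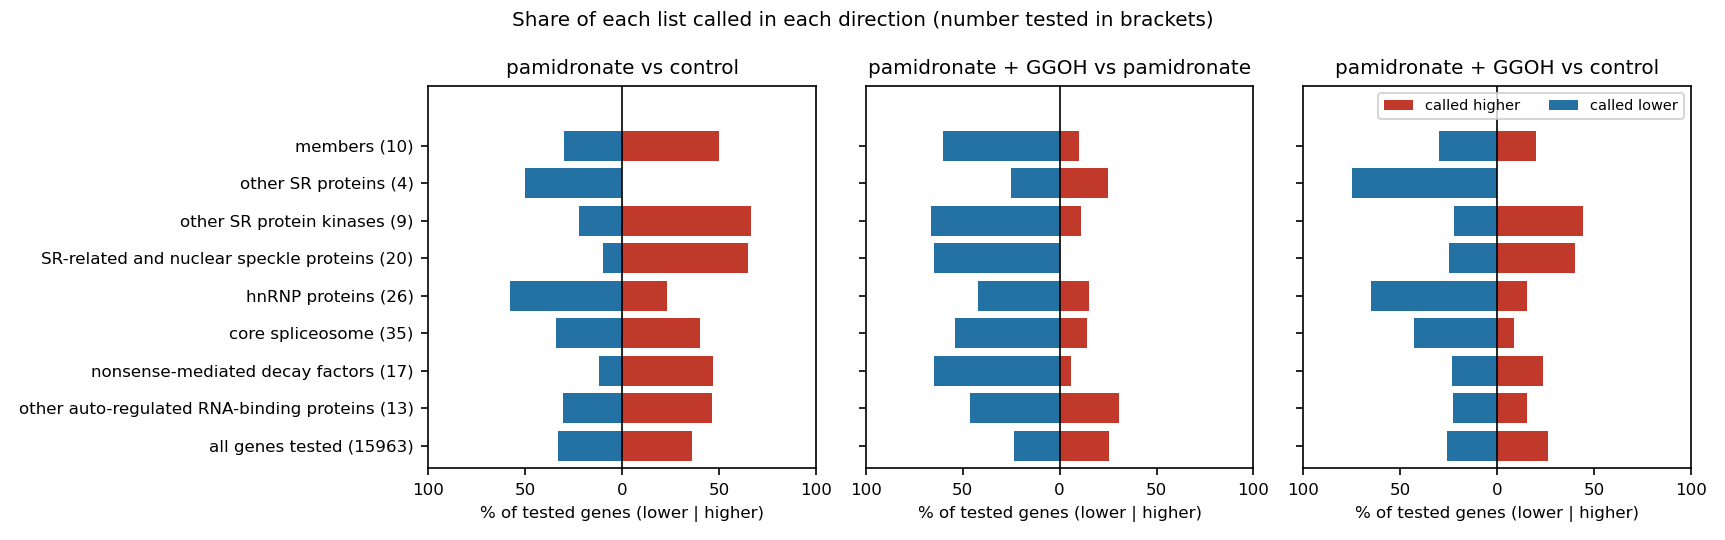
Share of the tested genes of each list called higher (right) and lower (left) in the 3 comparisons, as percent on the x axis, with the number tested in brackets and all genes tested in the bottom row. In the middle panel the bars for lower genes are longer than those for higher genes in 6 of the 7 other lists, and over all genes tested they are 23.6% and 25.2%.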

How the data were processed

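RNA of 9 libraries, 3 per group, was sequenced after removal of ribosomal RNA. The authors deposited raw counts per gene and TPM values, which matched count over exon length scaled to 1000000 within 5.0e-05. Trimmomatic 0.36 and DESeq, with the GRCm38 build, are named per the submitters' processing notes. For the aligner, the counting tool, strandedness and reads that match several genes, the setting is not given in the sources used here. Another numeric column of the deposited files, exon length, was used as given.

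Counts were fitted with edgeR 4.0.16 in R 4.3.3 (TMM factors, filterByExpr defaults, robust quasi-likelihood test) over all 9 libraries, with a mean per group. p-values were adjusted by Benjamini-Hochberg over 15963 genes, and a gene was called at an adjusted p under 0.05. The 3 comparisons share libraries. The script was tested on simulated data with 200 changed genes. Of those changed 1.5-fold, 2-fold and 4-fold, 37.3%, 83.6% and 95.5% were recovered. The changed genes spanned low and high counts, so these shares are not those of the members. The 10 members and the gene lists were chosen with earlier results of these data known. Members are all named. Of each other list, up to 4 called genes with the largest change with pamidronate and at least 5 CPM are named, except for some that are not reported here, and every gene of the 2 short lists of SR proteins and kinases may be. For Clk1 and Srsf3, the 5 genes with the highest Pearson r are named. Alternatives were RLE and upper-quartile factors, TMM without mitochondrial transcripts, Malat1 and Gm26917, no filter, a filter at 5 CPM in 3 libraries, DESeq2 1.42.0, limma-voom (limma 3.58.1), a replicate block, the 2 groups alone, and each library left out. Promoters are from RefSeq (GRCm38.p6), where 9 of the 10 members matched by symbol, and transcript classes are from GENCODE M21. Gene ends in the files differ from M21 for Srsf3 and Srsf7, and exon lengths differ for Srsf3, Srsf7 and Tra2b.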

Additional observations from a re-analysis of the deposited data

How the results depend on the processing

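Of 30 results on single members, each under 18 alternatives, 17 kept their direction and call in all of them, 4 lost a call and 7 gained one under at least 1 alternative. A sign turned for 7, none of which was called as reported. With upper-quartile factors, Srsf3 gave 0.0415 with pamidronate against the control, and for pamidronate + GGOH against the control Srsf5 gave 0.00049, Srsf7 0.0183, Tra2a 0.0340 and Tra2b 0.0174. For GGOH against pamidronate, Srsf2 gave 0.0174 with TMM factors that left out mitochondrial transcripts, Malat1 and Gm26917 and 0.0237 with no filter. With single libraries left out, Srsf2 ranged from -0.0794 to 0.112 and Srsf7 from -0.0394 to 0.121 in that comparison. The cause was not tested. Members called for pamidronate + GGOH against the control numbered 5 to 8 with single libraries left out, 8 of them without control replicate 1 and 7 without pamidronate + GGOH replicate 3. For pamidronate against the control they numbered 7 to 9 and for GGOH against pamidronate 6 to 7.

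Over all genes tested, libraries that share a replicate number did not deviate together from their group means, with correlations of -0.22 to 0.20 over 9 pairs, against -0.22 to 0.18 over 18 pairs with different numbers, and 3 of 9 libraries correlated best with their own number. With a replicate block, 10980, 7622 and 8275 genes were called in the 3 comparisons, in place of 11042, 7784 and 8359, and 8, 7 and 5 members, as without it. Among the members, Srsf2, Srsf3 and Tra2b were lowest in replicate 1 of all 3 groups, and with the block the adjusted p of Srsf2 with pamidronate was 7.06e-05 in place of 0.00112. With 3 libraries a group, small differences such as those of Tra2b, Srsf3, Srsf5 and Srsf7 lie near the limit of what could be called.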
